A study of Rattus norvegicus with 24 samples.

Results

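Haemoglobin, erythroid and platelet transcripts were followed in 6 regions of the rat brain after the NMDA receptor channel blocker MK-801. The genes are Hbb, Hbb-b1, Hba-a3, Hba-a1, Alas2 and Pf4. They had been chosen by their log2 ratios at both doses in these same arrays, so those ratios are given as a description and without a test. Of the 6 genes, 5 are among 15539 with a symbol on the array. Of its 41012 probes, 2 carried a listed gene name in the files (Hbb and Alas2). Another 3 were assigned through their RefSeq accession, namely Hbb-b1 (named MGC72973 in the files), Hba-a3 (LOC287167) and Pf4 (Cxcl4). Hba-a1 had no probe of its own, because the Hba-a3 probe also lists the accessions of Hba-a1 and Hba-a2. These transcripts cannot be told apart there. The Hbb-b1 probe likewise also lists an accession of Hbb. In all, 5 probes stood for the 6 genes, and all 5 passed the filter on brightness in all 3 comparisons. The Hbb-b1 probe had values at both doses in only 3 regions and so did not enter the fit of high against low dose.

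The rats were male Wistar animals of 300 to 350 g. Their age is 9 weeks in one label field and 10 weeks in another. They were housed 3 to a cage. Sample titles carry the word Control for the saline and the MK-801 RNA of every array. Of 9 rats, 3 were given saline, and the others received MK-801 once by the intraperitoneal route, 0.08 mg/kg as the low dose and 0.16 mg/kg as the high dose. Brains were removed 40 min later and dissected on ice into cortex, hippocampus, amygdala, ventral striatum, hypothalamus and midbrain. The sources used here do not say whether vessels were flushed of blood before dissection. Each of the 24 arrays compared, in 2 colours, a treated with a saline RNA of 1 region. Every region and dose was measured on 2 arrays of opposite dye, with treated RNA in Cy5 on replicate 1 and in Cy3 on replicate 2. The labels do not say how many rats an extract held, so the mean of a pair was counted as 1 value per region and dose. A log2 ratio below always means treated over saline, and its SD runs over regions. With 3 saline rats for 6 regions, some regions share an animal, so p-values over regions are too small. They measure only the spread between regions, which may be technical. Both doses share the saline group.

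Adult haemoglobin is a tetramer of alpha chains (Hba genes) and beta chains (Hbb genes), each holding a haem group. Red cell precursors fill with globin mRNA and lose their nucleus, and young circulating red cells, the reticulocytes, still carry that mRNA. Alas2 is the erythroid form of the first and rate-limiting enzyme of haem synthesis, whereas other cells use Alas1. Pf4 encodes platelet factor 4, a chemokine stored in platelet granules and made in megakaryocytes, the cells that shed platelets. Globin mRNA has also been described in neurons and glia, so these transcripts in a brain extract can have more than 1 cellular source. In bulk tissue, more blood cells in a piece and more RNA per cell cannot be told apart.

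The 5 probes read different parts of their transcripts, and their sequences set what each can separate. The Hbb and Hbb-b1 probes are shown by their last 30 of 60 bases, with the start codon in capitals for Hbb and the motif ATTAAA, a polyadenylation signal variant, in capitals for Hbb-b1. The other 2 lines give the whole Hba-a3 probe and a probe for the expressed sequence tag AI013718 that the files place on the opposite strand of the alpha-globin locus. Capitals in these 2 mark the stretch they share as reverse complements, 45 bases long.
Hbb: actcagaaacagacaccATGgtgcacctga
Hbb-b1: gaaaatctgtcctactaATTAAAggcattt
Hba-a3: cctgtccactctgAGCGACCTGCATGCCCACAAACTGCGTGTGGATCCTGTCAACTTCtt
AI013718: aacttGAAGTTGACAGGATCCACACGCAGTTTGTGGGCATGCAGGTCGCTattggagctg

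The first 50 bases of the Hbb probe matched the first 50 transcribed bases of the RefSeq Hbb model (GRCr8) with 0 mismatches. Against the matching stretch of Hbb-b1 it had 6 mismatches over 45 bases. The Hbb probe thus reads the very 5' end of its transcript, while the Hbb-b1 probe shares no run longer than 6 bases with it. For the other members the whole probe is given, since it is the only sequence measured.
Alas2: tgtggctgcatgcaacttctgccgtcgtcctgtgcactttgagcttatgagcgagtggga
Pf4: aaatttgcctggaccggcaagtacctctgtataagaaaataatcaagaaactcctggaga

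The files place the probes on the rn3 build. Hbb lies on chromosome 1 from 161701424 to 161701483 and Hbb-b1 from 161671970 to 161672029, both on the minus strand. Hba-a3 lies on chromosome 10 from 15560180 to 15560237 (minus), Pf4 on chromosome 14 from 18812555 to 18812614 (minus) and Alas2 on chromosome X from 39863822 to 39863881 (plus). Exons are not stated, as no rn3 annotation was at hand.

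The member probes of both globin clusters had dose differences of 1 sign. Other probes there did not all do so, such as Hbg1 (-0.03, above 0 in 3 of 6 regions). The bases upstream of the start site are shown for 1 gene of each cluster (RefSeq, GRCr8, minus strand). Capitals mark CACCC, a core of the box bound by erythroid KLF factors, and CCAAT, in either orientation.
Hbb, chr1:167663722-167663841: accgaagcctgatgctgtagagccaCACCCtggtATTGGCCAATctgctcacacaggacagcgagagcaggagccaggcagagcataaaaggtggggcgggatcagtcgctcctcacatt
Hba-a3, chr10:15816944-15817063: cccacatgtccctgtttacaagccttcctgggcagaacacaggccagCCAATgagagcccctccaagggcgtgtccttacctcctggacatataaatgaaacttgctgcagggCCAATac
Within 250 bases upstream, on both strands and counting overlapping matches, Hbb held CACCC 1 time and CCAAT 2 times, Hbb-b1 held them 3 times and 1 time, and Hba-a3 held CCAAT 2 times and CACCC 0 times. Alas2 held neither and had 1 match to AGATAA, the core bound by GATA factors, which the globin windows lacked. These motifs are common. CACCC occurred in 49.2% of 33469 rat promoter windows, CCAAT in 34.0% and AGATAA in 10.3%, and a match is a description only.

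Over the 24 arrays, 56.8% to 89.7% of spots per channel were well above background. The dissection showed in the saline RNA: 6 of 6 striatal markers had their excess in the ventral striatum (median 4.46 log2 units over the remaining regions) and 6 of 6 midbrain markers in the midbrain (4.86). For hippocampus, cortex and hypothalamus the medians were 0.88, 1.28 and 0.20, with 4 of 5, 3 of 5 and 6 of 8 markers higher, and no list was set for the amygdala. Hbb, Hbb-b1, Hba-a3 and Alas2 were well above background in every channel of the 24 arrays, and Pf4 in 24 of 24 treated and 23 of 24 saline channels. None of the member spots was saturated. Of the Hbb-b1 spots, 3 were marked as outliers by the scanner software (amygdala and midbrain at the high dose, hypothalamus at the low dose). They were left out of the ratios, so this probe has no pair mean there. Across all probes, the high dose against saline called 546 of 21556 (2.53%, limma with Benjamini-Hochberg adjusted p under 0.05, 1.37% higher and 1.16% lower), the low dose 634 of 23124 (2.74%, 1.35% higher and 1.39% lower) and the high against the low dose 411 of 22923 (1.79%, 1.02% higher and 0.772% lower).

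The beta-globin probes were lower than saline at the low dose and mostly above it at the high dose. For Hbb, single arrays at the low dose ran from -1.57 to -0.10 with a median of -0.44, and 0 of 12 lay above 0. High-dose arrays ran from -0.32 to 0.78 with a median of 0.40, and 10 of 12 lay above 0. The high-dose arrays below 0 were those with treated RNA in Cy5 of the ventral striatum (-0.32) and the hypothalamus (-0.16).

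By region, the low-dose mean of Hbb was -0.28 in cortex, -0.25 in hippocampus, -0.58 in amygdala, -1.11 in ventral striatum, -0.49 in hypothalamus and -0.56 in midbrain. The high-dose means were 0.42, 0.37, 0.65, 0.01, 0.14 and 0.41 in the same order. The ventral striatum was the lowest region at both doses. High-dose and low-dose region means did not overlap, but Hbb had been chosen by these ratios. The share of all probes without such overlap was not computed. Over regions Hbb averaged -0.54 ± 0.31 (SD, n = 6) at the low dose, 1.46-fold lower than saline, and 0.33 ± 0.23 (SD, n = 6) at the high dose, 1.26-fold higher.

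For Hbb-b1, 0 of 11 usable low-dose arrays and 8 of 10 high-dose arrays lay above 0. The low-dose pair means were -0.44 in cortex, -0.62 in hippocampus, -0.29 in amygdala, -0.99 in ventral striatum and -1.0 in midbrain. The high-dose means were 0.38 in cortex, 0.35 in hippocampus, -0.17 in ventral striatum and 0.14 in hypothalamus. As with Hbb, the ventral striatum had the lowest high-dose value, here below saline. The averages were -0.67 ± 0.32 (SD, n = 5) for the low and 0.17 ± 0.25 (SD, n = 4) for the high dose, from different sets of regions.

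The alpha-globin probe Hba-a3, which also stands for Hba-a1, had its larger deviation at the low dose. Its low-dose means were -0.32 in cortex, -0.51 in hippocampus, -0.50 in amygdala, -0.83 in ventral striatum, -0.51 in hypothalamus and -0.76 in midbrain, and 0 of 12 arrays lay above 0. With the high dose it stood at 0.39 in cortex, 0.33 in hippocampus, 0.11 in amygdala and 0.25 in midbrain. Ventral striatum (-0.03) and hypothalamus (-0.01) had means close to saline there, with arrays of opposite sign in each pair (0.41 and -0.46, 0.25 and -0.27). The averages were -0.57 ± 0.19 (SD, n = 6), 1.49-fold lower than saline, and 0.17 ± 0.18 (SD, n = 6), 1.13-fold higher. The high-dose average was therefore no larger than the spread between regions, and without the arrays of treated RNA in Cy5 it was -0.04.

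Alas2, the erythroid haem enzyme, lay below saline at the low dose about as far as above it at the high dose. Its low-dose means were -0.12 in cortex, -0.18 in hippocampus, -0.12 in amygdala, -0.57 in ventral striatum, -0.45 in hypothalamus and -0.43 in midbrain. The high-dose means of Alas2 were 0.40, 0.39, 0.41, 0.15, 0.17 and 0.28 in the same order. Cortex, hippocampus and amygdala were the higher 3 regions at either dose, and the ventral striatum was again the lowest. Alas2 averaged -0.31 ± 0.19 (SD, n = 6) at the low dose and 0.30 ± 0.12 (SD, n = 6) at the high dose, a ratio below 0 in 6 of 6 regions and above 0 in 6 of 6.

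Pf4, the platelet chemokine, was above saline at the high dose without a matching low value at the low dose. Its high-dose means were 0.47 in cortex, 0.24 in hippocampus, 0.32 in amygdala, 0.41 in ventral striatum, 0.34 in hypothalamus and 0.13 in midbrain, averaging 0.32 ± 0.12 (SD, n = 6). At the low dose it stood at -0.11, -0.25, 0.25, -0.07, 0.04 and -0.28 in the same order, averaging -0.07 ± 0.20 (SD, n = 6), less than the spread between regions. Amygdala and hypothalamus were above saline at both doses. The sign of the low-dose mean depended on the dye: 0.19 with treated RNA in Cy5 and -0.32 with treated RNA in Cy3.

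**Figure D1:**
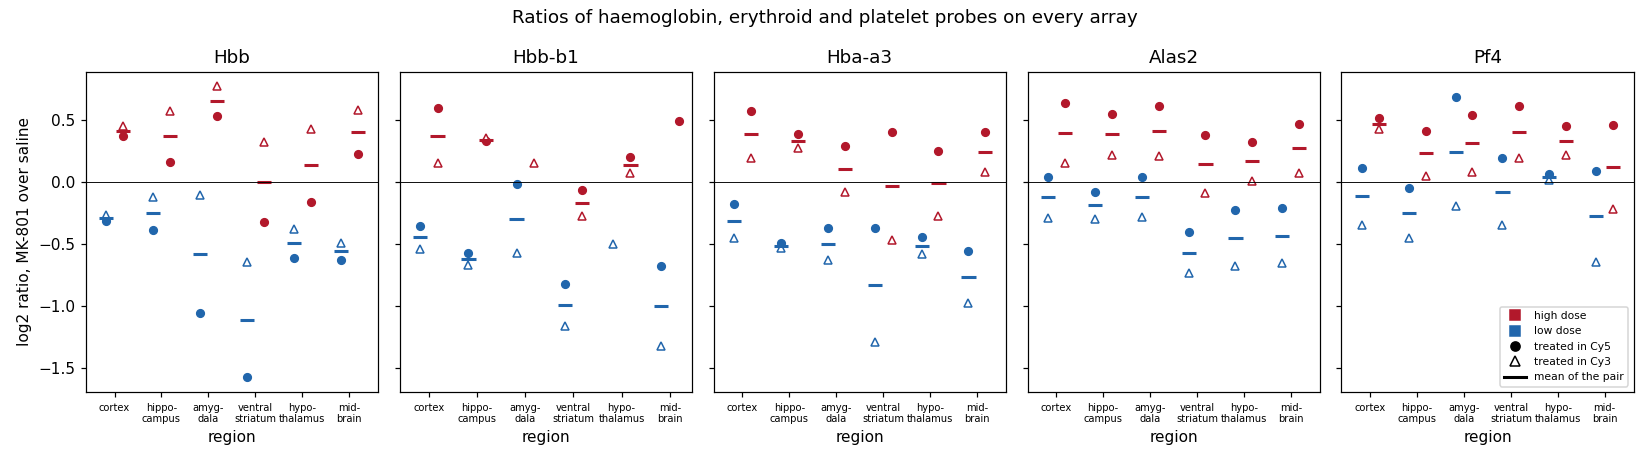
Log2 ratio of MK-801 over saline RNA (vertical axis) on each array, by region (horizontal axis), for the 5 probes. Red is the high and blue the low dose, filled circles have treated RNA in Cy5 and open triangles in Cy3, and bars are pair means. Low-dose bars of Hbb, Hbb-b1, Hba-a3 and Alas2 lie below 0 in every region with a value, and circles lie above triangles for all probes but Hbb, with 1 exception in Hbb-b1.

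Dye orientation shifted every member by an amount comparable with the ratios themselves. Replicate 1 exceeded replicate 2 in 12 of 12 pairs for Hba-a3, Alas2 and Pf4, with median differences of 0.35, 0.36 and 0.44, and in 8 of 9 pairs for Hbb-b1 (0.21). For Hbb it was lower in 12 of 12 pairs (-0.31). The dye shift cancels in a pair mean and in a comparison of doses on arrays of the same orientation. With treated RNA in Cy3 alone, the high-dose means of Alas2 and Pf4 were 0.10 and 0.13, and with treated RNA in Cy5 alone they were both 0.50. Compared within 1 orientation, the high-dose array was above the low-dose array of the same region and dye in 56 of 57 cases over the 5 probes. The exception was Pf4 in the amygdala with treated RNA in Cy5 (-0.14). The 57 cases share arrays, extracts and in part rats. The genes had been chosen by these ratios, so the count is a description. The matching share over all probes was not computed.

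The high-dose minus low-dose difference of log2 ratios was positive in every region with a value for each of the 5 probes. Of the 411 probes called between doses on the whole array, 96.4% likewise had 1 sign in every region with a value. The share over all tested probes was not computed. For Hbb it was 0.88 ± 0.26 (SD, n = 6), from 0.62 in hippocampus to 1.23 in amygdala, a 1.84-fold ratio. For Hba-a3 it was 0.74 ± 0.18 (SD, n = 6), from 0.50 in hypothalamus to 1.01 in midbrain. Hbb-b1 had 0.82 in cortex, 0.96 in hippocampus and 0.82 in ventral striatum.

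Alas2 had the narrowest range among the probes with 6 values, from 0.52 in cortex to 0.72 in ventral striatum (0.61 ± 0.09, SD, n = 6, a 1.53-fold ratio). Pf4 had the smallest mean, 0.39 ± 0.18 (SD, n = 6), and its value in the amygdala, 0.07, was smaller than the dye shift. Saline RNA enters both sides of this difference, and the labels do not say whether it was 1 extract. Regions were scanned on 3 days, 2 regions a day. The median difference over the probes was 0.75, 0.71 and 0.63 within these days.

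The regions differed in where they sat between the doses. The median ratio over the member probes at the low dose was -0.83 in ventral striatum, -0.56 in midbrain, -0.47 in hypothalamus, -0.29 in amygdala, -0.28 in cortex and -0.25 in hippocampus. At the high dose it was 0.01 in ventral striatum, 0.14 in hypothalamus, 0.26 in midbrain, 0.35 in hippocampus, 0.37 in amygdala and 0.40 in cortex. The ventral striatum, hypothalamus and midbrain were thus the lower 3 regions at both doses. Over the 6 regions, Hbb and Alas2 had a Pearson r of 0.89 (Spearman rho 0.94) with the high dose and 0.73 (rho 0.31) with the low dose. Hba-a3 and Alas2 had 0.77 (rho 0.66) and 0.82 (rho 0.89). Pf4 with Hbb, Hba-a3 or Alas2 gave r between -0.27 and 0.26 at single doses. For the differences between doses, Pf4 had an r of -0.52 with Hbb, 0.46 with Hba-a3 and 0.18 with Alas2, while Hbb had 0.13 with Hba-a3 and 0.26 with Alas2. The points of each r share the array, the extract and in part the rats, and are a description.

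The level of each transcript in saline RNA was read from the single channels after normalisation within and between arrays, as a log2 signal with the SD over 4 channels of a region. Hbb was highest in hypothalamus (11.29 ± 0.81) and hippocampus (10.69 ± 0.91), followed by ventral striatum (10.11 ± 0.47), cortex (9.76 ± 0.36), amygdala (9.496 ± 0.24) and midbrain (9.49 ± 0.18). No neighbours in that order differed by more than the larger of their SDs. Alas2 was highest in ventral striatum (10.24 ± 0.13) and lowest in hippocampus (9.23 ± 0.53), and 4 of its 5 neighbouring pairs were within the larger SD. All 4 arrays of a region were on 1 slide, so region and slide cannot be told apart here.

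Hba-a3 had a narrower range, from 16.44 ± 0.16 in midbrain and 16.40 ± 0.39 in ventral striatum to 15.75 ± 0.13 in hippocampus. Pf4 was highest in amygdala (8.76 ± 0.10) and lowest in hippocampus (7.63 ± 0.68). Hbb-b1 ran from 16.26 ± 0.23 in midbrain to 15.65 ± 0.93 in hypothalamus, less than the SD of the latter. Spots marked as outliers were kept in these levels. The hypothalamus mean and SD of Hbb-b1 include such a spot, at 14.26 against 16.05 to 16.19 in the other channels. The regions did not fall into 1 order for all members: midbrain was highest for Hba-a3 and Hbb-b1 and lowest for Hbb, and hippocampus was lowest for Hba-a3, Alas2 and Pf4 and second highest for Hbb.

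Saline levels of a region also differed between its arrays. For Hbb, the saline channels on the high-dose arrays were 0.97 above those on the low-dose arrays in hippocampus, 0.87 above in hypothalamus and 0.53 below in ventral striatum. For Hbb-b1 the range was from -1.51 in ventral striatum to 0.94 in hypothalamus, the latter with the spot marked as an outlier included. For Alas2 it stayed between -0.22 and 0.29. Treated RNA of the high dose lay above that of the low dose in 6 of 6 regions for Hbb, Hba-a3 and Alas2, and in 5 of 6 for Hbb-b1 and Pf4, with ventral striatum and midbrain as the respective exceptions. The Hbb-b1 levels in amygdala, hypothalamus and midbrain include spots marked as outliers. In ventral striatum, an unmarked Hbb-b1 spot at the high dose stood at 13.79 in treated and 13.85 in saline RNA. The swapped array had 16.36 and 16.63. That spot enters the -1.51 and the ventral striatum exception. The Hbb gaps in hippocampus and hypothalamus likewise include a low-dose array that was low in both channels.

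**Figure D2:**
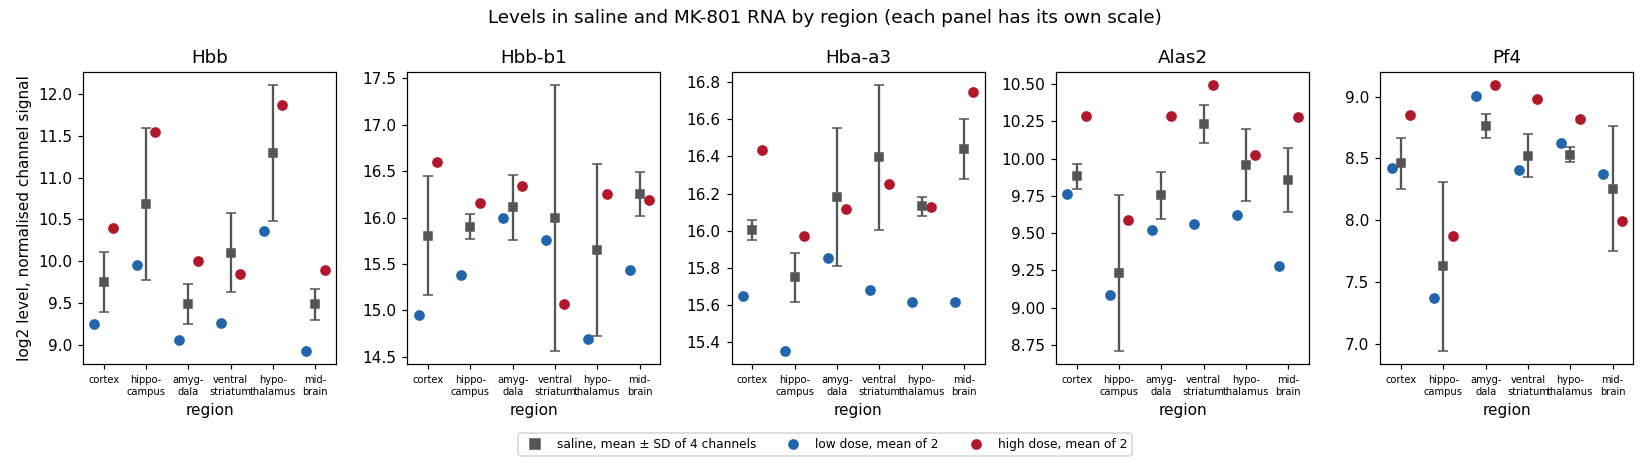
Normalised log2 channel signal (vertical axis, own scale in each panel) by region for the 5 probes. Grey squares are the saline mean with the SD over 4 channels, blue and red points the mean of 2 treated channels at the low and the high dose. Red points lie above blue ones in every region for Hbb, Hba-a3 and Alas2, and saline SDs are widest for Hbb-b1 (up to 1.43). That SD is for ventral striatum and includes a channel at 13.85, against 16.63 to 16.82 in the others. Spots marked as outliers are included.

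Of the other erythroid genes, 1 passed the test. The gene lists used from here on were chosen with earlier results of these data known. Their calls and p-values are therefore no independent support. Of 26 red cell genes listed, 20 had a probe and 7 passed the filter on brightness with the high dose and 8 with the low dose. Gata1 and Nfe2, factors of red cell and platelet precursors, were well above background in at most 1 of 24 saline channels, and Klf1, a factor of late red cell precursors, in 24 of 24. At the high dose 1 of 7 rose (background 1.37% higher), at the low dose 0 of 8 passed the limma threshold in either direction (2 of 8 at an unadjusted p under 0.05), and 1 of 8 had a larger ratio with the high than with the low dose (background 1.02%). The list medians were 0.048, -0.015 and 0.015, beside -0.0025, 0.0022 and -0.0053 over all probes tested.

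The gene that rose was Ahsp, the chaperone that binds free alpha-globin chains. At the high dose its ratio was 0.17 in cortex, 0.23 in hippocampus, 0.21 in amygdala, 0.15 in ventral striatum, 0.21 in hypothalamus and 0.16 in midbrain. The mean was 0.19 ± 0.02 (SE, n = 6; limma adjusted p = 0.00101). At the low dose it was -0.12 ± 0.04 (SE, n = 6; limma adjusted p = 0.186), below 0 in 5 of 6 regions, with cortex at 0.06. The difference between doses was 0.31 ± 0.04 (SE, n = 6; limma adjusted p = 0.00115), positive in 6 of 6 regions and largest in the ventral striatum (0.43). The high-dose call was lost with median centring (limma adjusted p = 0.197) and without replicate 1 (0.151). The difference between doses kept its call under all 17 alternatives, with adjusted p from 0.00044 to 0.034.

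Haem synthesis and late red cell genes that other cells also use stayed near 0, with medians of -0.002, 0.011 and -0.001 over 22 tested genes in the 3 comparisons. Alas1, the form of the enzyme used outside red cells, rose at the high dose (0.15 ± 0.04, SE, n = 6; limma adjusted p = 0.0437) and stood at 0.08 at the low dose (adjusted p = 0.16), above 0 in 6 of 6 regions at both. Its high-dose call held in 5 of 17 alternatives, and without the cortex the adjusted p was 0.153. Ube2l6, an enzyme of the interferon-induced ISG15 pathway that is also found in late red cells, fell at both doses by 0.39 ± 0.04 (SE, n = 6; limma adjusted p = 0.000107) and by 0.16 ± 0.03 (adjusted p = 0.0182). Its high-dose ratio was below its low-dose ratio (-0.23 ± 0.03, SE; limma adjusted p = 0.00198), the opposite order to the members. Without replicate 2 its low-dose ratio was -0.01 (limma adjusted p = 0.919). Fech, which inserts iron into protoporphyrin to form haem, did not pass the test (0.08 at the high dose, limma adjusted p = 0.258).

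Among platelet genes, 15 of 19 had a probe and 5 passed the filter, of which 1 had a larger ratio with the high than with the low dose (background 1.02%). Treml1, a receptor of platelet granules, had a high-dose ratio above its low-dose ratio by 0.17 ± 0.03 (SE, n = 6; limma adjusted p = 0.0121), with values from 0.07 in amygdala to 0.22 in ventral striatum. Against saline it stood at 0.12 (adjusted p = 0.0768) with the high dose and -0.05 (adjusted p = 0.62) with the low dose. Without the ventral striatum or the hypothalamus its dose difference had an adjusted p of 0.0665 or 0.0528. Without replicate 2 the adjusted p was 0.448, and with median centring 0.647. The other 4 tested platelet genes, Gp1bb and Gp9 of the von Willebrand factor receptor, Plek and Gng11, had dose differences between -0.08 and 0.10 and were not called. Ppbp, a chemokine stored with Pf4, was well above background in 14 of 24 saline channels and was not tested.

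Few of the listed leukocyte markers were bright enough to test. Of 29 genes with a probe, 4 were never well above background and 4 could be tested at each dose against saline, with 0 called by limma (0 and 1 at an unadjusted p under 0.05). Their medians were -0.03 with the high dose and -0.04 with the low dose. Camp, a granule protein of neutrophils, and Cd3d, a T cell receptor subunit, were well above background in 24 of 24 saline channels and had dose differences of 0.06 and -0.01. Coro1a, an actin-binding protein of leukocytes, was as often above background and had a dose difference of 0.06. The other genes tested between doses, Lck and Nkg7, had differences of -0.05 and -0.02. Cd52, a lymphocyte gene outside this list, had a larger dose difference (0.38) and is described with the probes most like the members.

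Markers of vessels, surface tissue and microglia are given beside the blood genes, because the pieces differ in what they hold, and their part in the member ratios was not tested. Of 17 endothelial genes tested at the high dose, 1 rose (background 1.37% higher) and 2 fell (1.16% lower). Slc2a1, which carries glucose across the barrier endothelium, rose by 0.13 (limma adjusted p = 0.026), while Kdr, a receptor for VEGF, fell by 0.18 (adjusted p = 0.0123) and Itm2a fell by 0.18 (adjusted p = 0.00688). At the low dose Slc2a1 rose by 0.12 and Kdr fell by 0.30 (adjusted p = 0.0179 and 0.00298), the 2 called of 18 tested (background 1.35% higher and 1.39% lower). Over 17 alternatives these high-dose calls held in 9, 13 and 16 cases, and the low-dose calls in 11 and 17. The endothelial medians were -0.004, -0.015 and 0.017 in the 3 comparisons. None of 10 to 11 pericyte and smooth muscle genes was called by limma (1, 1 and 3 at an unadjusted p under 0.05), with medians of 0.035, -0.027 and 0.057. Summed saline levels of the endothelial list ran from 45278 to 63777 between regions, of the mural list from 21649 to 33547.

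Averaged over regions, meningeal genes shared the sign of the members at the low dose. All 12 tested meningeal genes had a mean below saline, with a median of -0.27. All 12 also had the higher mean ratio with the high dose, with a median difference of 0.26. Single regions were mixed: the dose difference was above 0 in 6 of 6 for Lum, 3 of 6 for Col1a1 and Col1a2 and 2 of 6 for Col3a1. Only Slc6a13, a GABA transporter of meningeal cells, passed the test (fell by 0.31 ± 0.06 at the low dose, SE, n = 6; limma adjusted p = 0.0178; background 1.39% lower), and its adjusted p was 0.0725 without the hippocampus and 0.0664 with the processed signals. By region the meningeal median at the low dose was -0.97 in cortex, -0.55 in hippocampus, -0.29 in midbrain, -0.01 in amygdala, 0.04 in ventral striatum and 0.08 in hypothalamus. The ventral striatum, where the member median was lowest (-0.83), thus had a meningeal median near 0, and the cortex, with the lowest meningeal median, had a member median of -0.28. At the high dose the meningeal median was 0.555 in midbrain, 0.10 in amygdala and 0.04 in cortex. It was -0.04 in ventral striatum, -0.20 in hypothalamus and -0.53 in hippocampus. Summed meningeal levels in saline RNA ran from 46571 in ventral striatum to 211476 in amygdala, in low-dose RNA from 45070 to 215314 and in high-dose RNA from 41719 to 207514, and no gene of the list was without signal. Of 4 choroid plexus genes tested at the low dose 0 were called by limma (0 at an unadjusted p under 0.05), with a median of -0.09. By region that median ran from -0.95 in hippocampus to 0.22 in hypothalamus. Over the 3 genes tested at the high dose, 0 of them called, it ran from -1.19 in hypothalamus to 0.93 in amygdala.

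Some microglial genes rose at the low dose, where the beta-globin, alpha-globin and Alas2 ratios lay below saline. Of 12 tested, 5 passed the test and rose (background 1.35% higher), among them C1qc (0.22; limma adjusted p = 0.000337), Laptm5 (0.22; 0.000549), P2ry12 (0.17; 0.00858) and C1qa (0.15; 0.0142), complement subunits, a lysosomal protein and a purine receptor. The others did not pass, and Cx3cr1 (-0.04) and Tyrobp (-0.03) lay below 0. Over 17 alternatives the low-dose calls of C1qc, Laptm5, P2ry12 and C1qa held in 16, 16, 17 and 14 cases, and that of C1qb, the fifth gene (0.11; limma adjusted p = 0.0342), in 6. Without replicate 2 the low-dose ratios were -0.01 for C1qc (limma adjusted p = 0.808), 0.09 for Laptm5 (0.111) and -0.07 for C1qb (0.17). C1qb, Cx3cr1 and Tyrobp were named after their values were seen. At the high dose 0 of 12 were called by limma (1 at an unadjusted p under 0.05). Between doses, 4 of 12 were lower with the high dose (background 0.772% lower), with P2ry12 at -0.23 (adjusted p = 0.00232), Laptm5 at -0.16 (0.0181), C1qc at -0.15 (0.0359) and C1qa at -0.14 (0.0366). These 4 dose differences held in 15, 7, 6 and 3 of 17 alternatives, and with median centring or without replicate 2 limma called 0 of 12. Summed microglial levels ran from 55420 to 83370 in saline, 57847 to 86017 in low-dose and 56635 to 84244 in high-dose RNA.

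**Figure D3:**
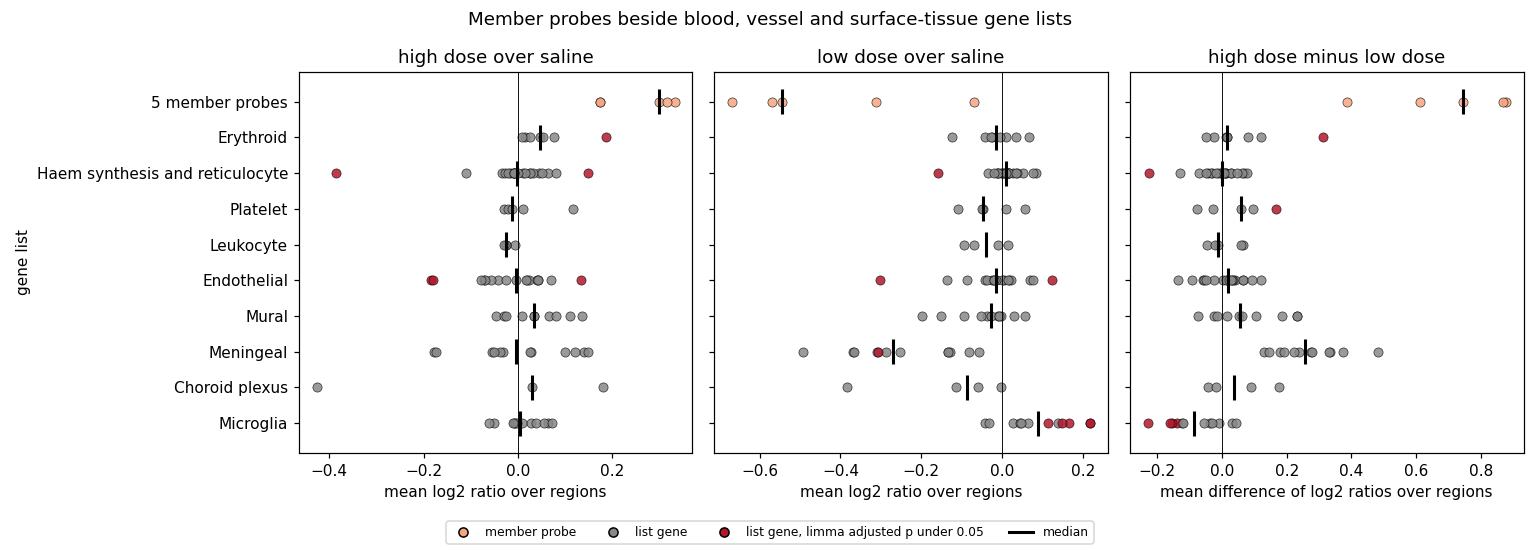
Mean log2 ratio over regions (horizontal axis; for the right panel the mean difference of ratios) for the 5 member probes and for 9 gene lists (rows). Points are genes, red points list genes with a limma adjusted p under 0.05, and vertical bars medians. The member median is -0.54 at the low dose and 0.74 between doses, against -0.27 and 0.26 for meningeal genes and medians within 0.09 of 0 for the other lists.

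Of the other probes at the globin loci, 2 on the opposite strand had dose differences above 0 in 6 of 6 regions. These 12 probes were chosen after their values were seen and are described without a test. AI013718, the opposite-strand probe printed above, was well above background in all channels and stood at 0.19 ± 0.14 (SD, n = 6) with the high dose and -0.45 ± 0.27 with the low dose. Its dose difference was 0.64 ± 0.21, positive in 6 of 6 regions, from 0.31 in amygdala to 0.89 in hippocampus. Another AI013718 probe, not printed and also well above background in all channels, had 0.13 ± 0.10 and -0.07 ± 0.34 with a difference of 0.21 ± 0.33, no larger than its spread.

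At the beta-globin locus, an opposite-strand probe for AABR03001498 (chromosome 1, 161667083 to 161667142, rn3) had 0.15 ± 0.19 (SD, n = 6) with the high dose and -0.35 ± 0.30 with the low dose, with a difference of 0.50 ± 0.16 in 6 of 6 regions. It shared no run longer than 7 bases with the reverse complement of either printed beta-globin probe. Its ventral striatum was the lowest region at both doses (-0.21 and -0.81), as for Hbb. The embryonic and fetal type globins Hbe1, Hbe2 and Hbg1 and the theta globin Hbq1 had mean ratios between -0.08 and 0.04 at both doses, and were well above background in 0 to 22 of 24 saline channels. Hbe2 (22 of 24) and Hbg1 (20 of 24) thus had signal in most channels, with dose differences of 0.06 ± 0.07 and -0.03 ± 0.07 (SD, n = 6).

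**Figure D4:**
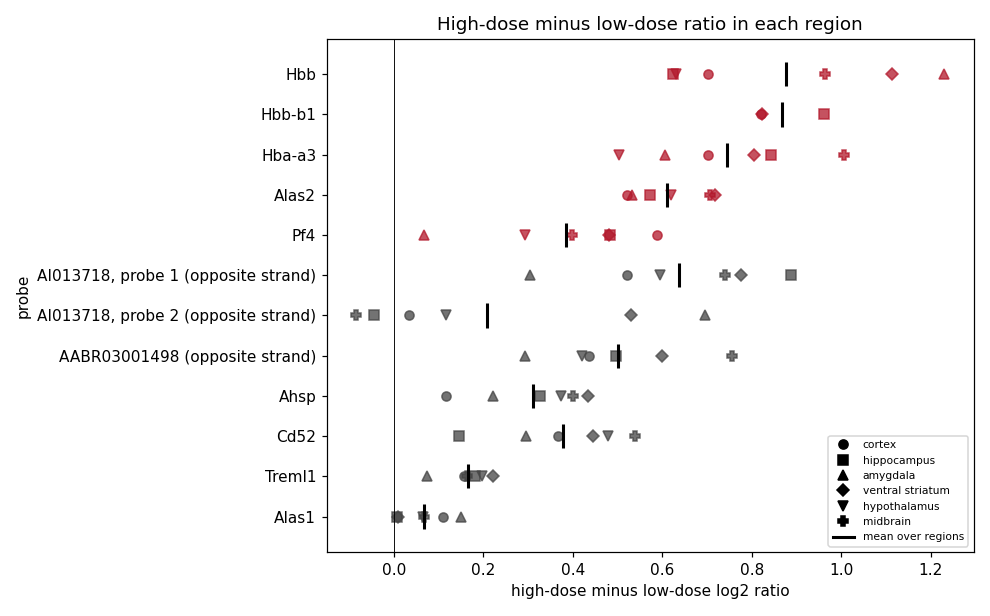
High-dose minus low-dose log2 ratio (horizontal axis) of each region (symbols) for the 5 member probes in red and for globin-locus, erythroid, leukocyte and platelet comparison probes in grey. Vertical bars are means over regions. All member values lie above 0, from 0.07 for Pf4 in amygdala to 1.23 for Hbb in amygdala, and Alas1 lies nearest 0.

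The probes whose pattern was most like that of the members were ranked by Pearson r with the mean of the 4 complete member probes over the 12 region and dose values, among 11695 candidates. Ahsp came first with r = 0.95. It was followed by Haus1, a subunit of a microtubule-binding complex (0.94), Cd52, a surface glycoprotein of lymphocytes (0.91), Zc3h14, an RNA-binding protein (0.91), Hspb1, a small heat shock protein (0.90), Morn5 (0.89), Opalin, a membrane protein of oligodendrocytes (0.89), Or4k50 (0.88), Npepps, an aminopeptidase (0.88), and Ccdc65 (0.86). The step between doses makes most of such an r. Within the 6 low-dose values, r was 0.94 for Ahsp, 0.91 for Or4k50 and 0.89 for Cd52 but -0.13 for Opalin, while within the 6 high-dose values it was 0.35, 0.40, -0.20 and -0.16. The 12 values share arrays and saline RNA, and the ranking is a description.

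Of these 10 probes, Haus1 and Opalin had the largest dose differences, 0.97 and 0.86, and Cd52 had high-dose and low-dose means of 0.23 and -0.15. Haus1 ran from 0.81 to 1.11 and Opalin from 0.70 to 0.99 between regions. Cd52 had its largest difference in the midbrain (0.54) and its smallest in the hippocampus (0.15). Unlike the members, Zc3h14 had means below saline at the high and the low dose (-0.25 and -0.38). Ccdc65 had means above saline at both (0.82 and 0.40). The dose differences of Zc3h14 (0.13; limma adjusted p = 0.0605) and Or4k50 (0.10; 0.234) were not called, and Or4k50 was not tested at the low dose.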

How the data were processed

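The members and gene lists were chosen with earlier results of these data known. Per the file headers and the submitters' processing notes, the authors' scanner files hold spot intensity (mean signal and local background, linear) from Agilent Feature Extraction 9.5.3.1, and processed signals and a log10 ratio of the dyes. The values deposited by the authors are log10 of treated over saline: 100% of its values lay within 0.01 of that computed from the processed signals, and its column medians ran from -0.03 to 0.02.

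Here, intensities were corrected with normexp (offset 50) and normalised by loess within arrays, in limma 3.58.1 under R 4.3.3 (data.table package, version 1.17.8), with control spots at weight 0 and outlier spots left out. Swapped arrays were turned, spots of a probe averaged and each dye-swapped pair averaged to 1 value. Channel levels used Aquantile normalisation between arrays and kept the outlier spots. Probes well above background on every array of a comparison, in treated or in saline RNA, with at least 4 region values were fitted over 6 regions (lmFit, eBayes, Benjamini-Hochberg over all probes, threshold 0.05). A list gene with several probes was represented by its brightest. On simulated data, 94 of 100 probes changed by 0.3 were recovered for the high dose and 89 of 100 for the dose difference. Recovery of smaller changes is not given here, so a list gene that was not called is not shown to be unchanged. Slide and region coincide, and the number of arrays limits the precision.

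Names were updated by accession or synonym through RefSeq (GRCr8; 10735 probes by systematic accession). Named genes were the members, up to 4 called genes per list, comparison and direction, and the 10 probes most like the members. Some list genes that were not called, such as Klf1, Fech and Camp, are named outside that rule. Sequences are from the scanner files and RefSeq, with promoter windows for 5 of the 6 genes. Alternatives varied signal source, offset, centring, filter, probes per gene, scan day, arrays and regions; keeping outlier spots was added after the data were seen.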

Additional observations from a re-analysis of the deposited data

Results flagged for a closer look

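Among 83 groups of values examined for a sample far from the others, 8 had one, where chance gives about 1 in 20. Of these, 6 were saline levels of a member on 1 array of a region, each on an array with saline RNA in Cy3. Hbb stood at 9.34 on the low-dose array of the hippocampus, against 11.06 to 11.29 on the other 3, and at 10.09 on the low-dose array of the hypothalamus, against 11.60 to 11.85. Hbb-b1 stood at 13.85 on the high-dose array of the ventral striatum, against 16.63 to 16.82, and at 14.26 on the low-dose array of the hypothalamus, against 16.05 to 16.19, where the spot is 1 of those marked as outliers. Hba-a3 stood at 15.62 on the high-dose array of the amygdala, against 16.32 to 16.39. Alas2 stood at 9.60 on the high-dose array of the hypothalamus, against 10.05 to 10.10. In the Hbb and Hbb-b1 cases the treated channel of the same spot was low too. In the order given it stood at 8.96, 9.48, 13.79 and 13.77. The swapped arrays of the same region and dose had 10.95, 11.25, 16.36 and 15.6. For Hba-a3 and Alas2 the treated channel stood at 15.92 and 9.93, against 16.31 and 10.11 on the swapped arrays.

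The dose difference of Ube2l6 was -0.36 in the ventral striatum and between -0.22 and -0.17 in the other regions. The high-dose ratio of Slc6a13 was 0.42 in the midbrain and between -0.44 and -0.20 in the other regions.

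Hbb and Alas2 lay above saline in every region at the high dose and below it in every region at the low dose. Their mean differences between doses were 0.88 and 0.61. The genes had been listed for these ratios, and the difference was not tested. The share of all probes with this pattern was not computed.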

How the results depend on the processing

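The median member ratio kept its sign under all 18 alternatives in each comparison, from 0.10 to 0.39 at the high dose (main value 0.30), from -0.60 to -0.37 at the low dose (-0.54) and from 0.63 to 0.79 between doses (0.74). At the high dose it was 0.10 without replicate 1 and 0.39 without replicate 2. With 1 dye orientation, Hba-a3 at the high dose ranged from -0.041 to 0.389, and at the low dose Pf4 from -0.324 to 0.186, C1qb from -0.0675 to 0.293 and C1qc from -0.0131 to 0.449, so that their sign depended on the orientation. The median spread of saline levels over regions was 1.001 log2 units and 1.02 to 1.13 under the 3 alternatives.

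The number of probes called varied more. Leaving out 1 region or 1 dye orientation gave 339 to 8442 calls at the high dose (main value 546), 404 to 9042 at the low dose (634) and 175 to 357 between doses (411). The high counts come from 1 dye orientation alone (7091 and 8442, 9042 and 8028), where the dye effect does not cancel. Leaving out amygdala, cortex or ventral striatum gave 354, 339 and 350 at the high dose, and leaving out ventral striatum 404 at the low dose, with fewer values per probe. Between doses, leaving out replicate 2 gave 175. Median centring gave 155 at the high dose and 110 between doses, and the cause was not tested. All other alternatives stayed within 1.5 times the main count. The doses were compared within regions throughout. The replicate numbers mark only the dye orientation, and no analysis paired by rat was made, as the labels do not tie regions to rats.

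Depth of signal limits the lists: 7 to 8 of 26 erythroid, 5 of 19 platelet and 4 to 5 of 30 leukocyte genes were bright enough to test. Hbb-b1 rests on 3 regions between doses, where single alternatives gave 0.66 to 0.96.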
